A study of Mus musculus with 9 samples.

Results

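The genes described here are 10 regulators of mitotic entry: the cyclins Ccna2, Ccnb1 and Ccnb2, the kinase Cdk1, the phosphatases Cdc25a, Cdc25b and Cdc25c, the kinases Wee1 and Pkmyt1, and the transcription factor Foxm1. They were chosen by name, through the RefSeq accession that the array design gives each probe, and each gene was read from its brightest probe. All 10 were on the array, with 15 probes among them, and all 10 were among the 12437 named genes tested, within 21800 features in all. The study hybridised RNA of mouse embryonic clones that differ in ploidy to one-colour Agilent arrays, 1 array per clone. The groups were 3 triploid clones, 3 tetraploid clones and 3 diploid clones. Every clone, diploid ones included, carried the genotype p53-/- in its genotype field, so no group has p53, and none was treated before RNA extraction. The free-text descriptions name another gene number than p53 for all clones but diploid clone 1; the genotype field was followed. The labels do not say from which embryos or cultures the clones were derived. The p-values therefore measure the spread between these 9 samples only.

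Entry into mitosis is set by the kinase Cdk1 bound to an A- or B-type cyclin. Wee1 and Pkmyt1 hold the complex inactive by phosphorylating Cdk1, and the Cdc25 phosphatases remove those phosphates. Foxm1 drives transcription of many genes used late in the cell cycle, B-type cyclins among them, and several of these promoters are known for a CHR element (cell cycle genes homology region) spaced from CCAAT boxes.

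Promoter sequences are shown first for 4 genes that the results turn on: both B-type cyclins, whose diploid clones were lowest, their kinase Cdk1, whose groups overlapped, and Cdc25a, whose triploid clones were highest. Each line gives the 250 bases before the RefSeq gene start, 5′ to 3′ on the strand of the gene, in the mouse assembly GRCm38.p6, with sequence from RefSeq. Capitals mark the motifs found on either strand: the CHR element (TTTGAA or TTCGAA), the CCAAT box (CCAAT, or ATTGG on the other strand) and the E2F site (TTTCCCGC, TTTGGCGC, TTTGCCGC or TTTCGCGC). No motif found overlapped another in these 4 windows. The windows lie at chr13:100786487-100786736 (minus strand) for Ccnb1, chr9:70421555-70421804 (minus strand) for Ccnb2, chr10:69352913-69353162 (minus strand) for Cdk1 and chr9:109875329-109875578 (plus strand) for Cdc25a.
Ccnb1: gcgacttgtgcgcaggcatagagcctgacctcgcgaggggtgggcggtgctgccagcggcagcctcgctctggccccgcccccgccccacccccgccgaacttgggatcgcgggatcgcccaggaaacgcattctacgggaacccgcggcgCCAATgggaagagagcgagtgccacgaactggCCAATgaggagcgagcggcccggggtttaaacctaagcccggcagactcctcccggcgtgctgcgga
Ccnb2: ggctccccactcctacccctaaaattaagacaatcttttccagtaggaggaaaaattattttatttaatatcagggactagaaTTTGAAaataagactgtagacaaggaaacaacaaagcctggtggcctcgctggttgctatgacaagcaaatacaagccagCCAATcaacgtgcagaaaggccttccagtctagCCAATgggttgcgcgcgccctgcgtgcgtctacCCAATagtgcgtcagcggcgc
Cdk1: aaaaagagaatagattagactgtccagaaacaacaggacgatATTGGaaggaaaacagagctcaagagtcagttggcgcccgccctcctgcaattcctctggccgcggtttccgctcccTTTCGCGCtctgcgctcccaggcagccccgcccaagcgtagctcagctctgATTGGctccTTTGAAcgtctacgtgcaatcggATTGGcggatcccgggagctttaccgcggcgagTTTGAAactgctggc
Cdc25a: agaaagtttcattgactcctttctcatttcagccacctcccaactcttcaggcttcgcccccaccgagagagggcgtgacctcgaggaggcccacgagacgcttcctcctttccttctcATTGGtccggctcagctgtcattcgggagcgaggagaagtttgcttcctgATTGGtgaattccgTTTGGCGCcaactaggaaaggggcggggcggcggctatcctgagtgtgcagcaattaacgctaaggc

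The promoter table held 5 of the 10 genes, these 4 and Cdc25b. A CCAAT box was found in 5 of 5 windows, against 33.8% of all 32851 promoter windows of the same length, and at least 2 boxes were found in 4 of 5, against 10.1% of all windows. The window of Ccnb2 held 3 CCAAT boxes on the strand of the gene and 1 CHR element, whereas that of Cdk1 held 3 boxes on the other strand and 2 CHR elements. A CHR element was found in 2 of the 5 windows and in 17.1% of all windows, and a CHR element together with a CCAAT box in 2 of 5 and in 6.02% of all. The E2F letters were found in Cdk1 and Cdc25a, 2 of 5 windows, against 1.86% of all. The forkhead core TAAACA, the letters bound by factors of the Foxm1 family, was searched on both strands and matched in 0 of 5 windows, against 12.0% of all. These counts depend on the window: with the 50 bases after the start added, a choice made after seeing the data, Ccnb1 had a forkhead match (1 of 5 genes, against 13.4% of all windows) and Cdc25b a CHR element (3 of 5, against 19.2%). The longer window of Ccnb2 held 2 CHR elements, against 1 in the window shown. A match is a description of letters in a window and was tied to no binding data here.

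Between 44.8% and 50.9% of the spots on an array were called well above background, and 0 spots were saturated. All 10 genes were well above background on all 9 arrays. The 75th percentile of the processed signal, to which each array was scaled, lay between 215 and 407 intensity units. Diploid clone 1 was alone on its slide and the other clones shared a slide, and triploid clone 1 had the lowest correlations within its group, r = 0.948 and 0.956 with the other triploid clones, which correlated with each other at 0.985. Of 8 fibroblast and mesenchyme markers, 8 were tested and 7 were well above background on all 9 arrays; their signals, summed in multiples of the 75th percentile, ran over 1020 to 2185 in triploid clones, 2255 to 2778 in tetraploid clones and 2076 to 2779 in diploid clones. These sums are carried by the brightest probes, and single markers differed in direction: Thy1, well above background on 7 arrays, read -2.04, -2.63 and -4.86 in triploid clones, 2.66, -4.67 and -4.13 in tetraploid clones, and 6.42, 7.62 and 2.55 in diploid clones, in log2 units with 0 at the 75th percentile. Triploid minus diploid differences were -1.78 ± 0.58 for Pdgfrb, 1.77 ± 0.54 for Col3a1 and 1.36 ± 0.55 for Pdgfra, and 0 of the 8 passed in limma in any comparison. An unadjusted p under 0.05 was reached by 6 in triploid minus diploid (21.2% of all features) and by 1 in tetraploid minus diploid (14.8%). In triploid minus tetraploid it was reached by 4 (20.8%). The labels say only embryonic cells. Krt18, the 1 epithelial marker tested, was well above background on 6 arrays and ran over 0.0319 to 0.336 of the 75th percentile in triploid clones, 0.0390 to 0.114 in tetraploid clones and 0.356 to 1.94 in diploid clones. The part of these markers in the differences between groups was not tested. Epcam, Cdh1 and Cldn3 of 5 epithelial markers, Ptprc and Adgre1 of 5 blood markers, and Pou5f1 and Zfp42 of 4 pluripotency markers were above background on no array, while Nanog, Csf1r, Pecam1 and Kdr were above it on all 9.

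The first comparison asks how triploid clones differ from diploid clones. Between these groups 9 of the 10 regulators had the higher mean in triploid clones, and Wee1 alone had the lower mean, though 7 were higher when arrays were scaled to the probes detected on all of them and 8 after quantile normalization. The median difference of the 10 genes was 0.44 on the log2 scale, against a median of 0.10 over all features. In limma 0 of the 10 genes passed the threshold, a Benjamini-Hochberg adjusted p of 0.05 over all features, where 1.83% of all features passed. An unadjusted p under 0.05 was reached by 2 genes, Ccnb1 and Ccnb2, a share near the 21.2% of all features. The 3 triploid clones lay above all 3 diploid clones for 3 genes, Ccnb1, Ccnb2 and Cdc25a, where 17.2% of all features did so, and below them for 1 gene, Wee1, where 10.8% did so. Without triploid clone 1, 5 genes reached an unadjusted p under 0.05, as did 24.7% of features, and 7 lay above all diploid clones, where 27.6% of all features did, and 0 passed after adjustment. The number at an unadjusted p under 0.05 was 0 without diploid clone 1 or 2 (18.5% and 16.6% of features), 0 without triploid clone 2 or 3 (13.8% and 14.7%) and 1 without diploid clone 3 (16.3%). With the slide as a block it was 0, against 18.6% of features, and the median of the 10 was 0.49. Diploid clone 1 is alone on its slide, so this block gives the same differences as leaving that clone out and is no further check.

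Tetraploid clones were compared with diploid clones in the same fit. The tetraploid mean was higher for 7 of the 10 genes and lower for Cdk1, Cdc25a and Wee1, and the median difference of the 10 was 0.29 against a median of -0.01 over all features. Again 0 genes passed in limma after adjustment, where 0.0734% of features passed, and 2 genes, Ccna2 and Ccnb2, had an unadjusted p under 0.05, as did 14.8% of features. The tetraploid clones lay above all diploid clones for 3 genes, the cyclins Ccna2, Ccnb1 and Ccnb2, against 11.0% of features, and below them for 1 gene, Wee1, against 11.1%. The number with an unadjusted p under 0.05 was 0 without tetraploid clone 2 (15.0% of features) or diploid clone 2 (8.80%), 1 without diploid clone 1 or 3 (13.8% and 15.8%), 3 without tetraploid clone 3 (13.1%), and 1 with the slide as a block (13.4%). The slide block again repeats leaving out diploid clone 1. The number lying above all diploid clones was 5 without diploid clone 3 or tetraploid clone 1, where 18.7% and 13.8% of features did so, and the number lying below was 3 without tetraploid clone 2, where 18.6% did so. The median of the 10 was 0.12 without diploid clone 2 and 0.17 without tetraploid clone 2. Both comparisons use the same diploid clones, so their values stand side by side and are not independent.

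Between triploid and tetraploid clones the 10 genes had a median difference of 0.06, below the median of 0.17 over all features. Triploid means were higher for 6 genes and lower for Ccna2, Ccnb2, Cdc25c and Wee1. After adjustment 0 genes passed in limma, where 2.70% of features passed, and 1 gene, Cdc25a, had an unadjusted p under 0.05, as did 20.8% of features. Cdc25a was also the 1 gene with all triploid clones above all tetraploid clones, where 14.7% of features were so placed, and 0 genes had all triploid clones below, where 11.3% of features did. The number with triploid clones above was 3 without triploid clone 1 and 2 without tetraploid clone 2, against 24.4% and 30.4% of features, and the number with triploid clones below was 1 without triploid clone 2 or tetraploid clone 3, against 14.5% and 15.2%. The number with an unadjusted p under 0.05 was 0 without tetraploid clone 1 or 3 (16.1% and 14.8% of features) or triploid clone 3 (16.3%). Leaving out 1 clone moved the median of the 10 over -0.08 to 0.18 and the number of genes higher in triploid clones over 3 to 8, so the direction of this median rests on single clones.

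**Figure D1:**
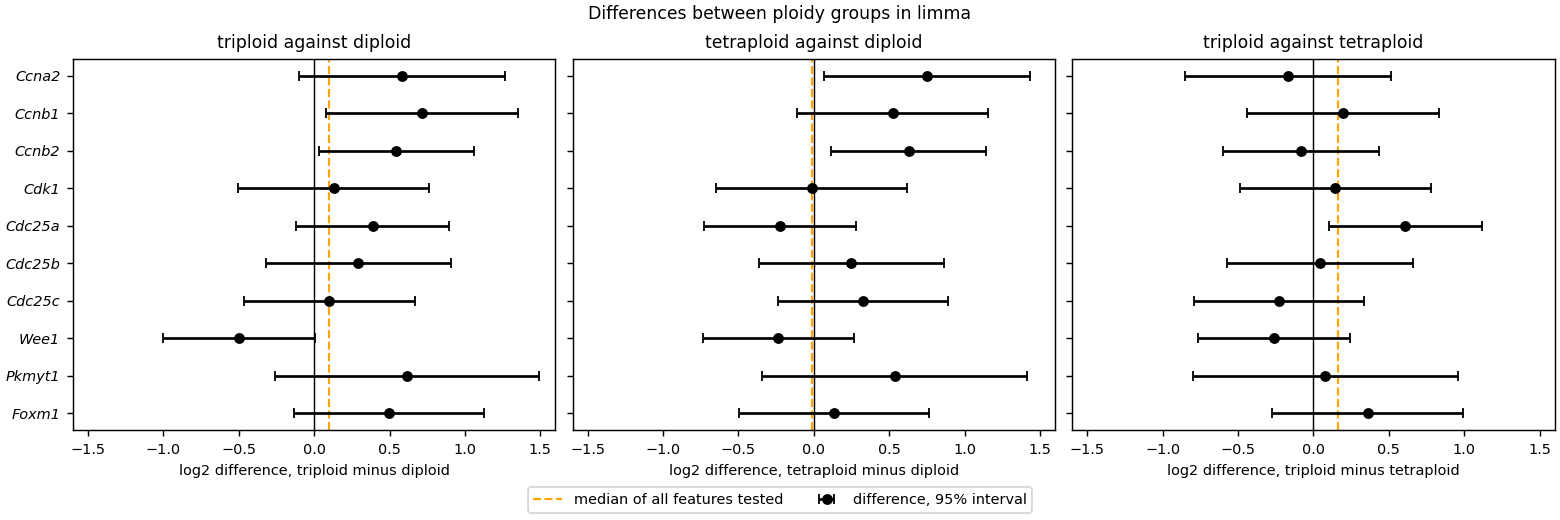
Log2 difference between group means for each of the 10 genes (points) with its 95% interval from limma (bars), for triploid minus diploid, tetraploid minus diploid and triploid minus tetraploid clones; the dashed line is the median over all features, at 0.10, -0.01 and 0.17. The intervals of Ccnb1 and Ccnb2 in the first panel, of Ccna2 and Ccnb2 in the second and of Cdc25a in the third lie to the right of 0.

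The 3 cyclins are the genes for which all tetraploid clones lay above all diploid clones, and for both B-type cyclins all triploid clones did so too. All values in the sentences on single genes are log2 signals, with 0 at the 75th percentile of each array, in the order of clones 1, 2 and 3 of each group. Ccnb1, the B-type cyclin that accompanies Cdk1 into the nucleus, read 5.30, 6.03 and 5.50 in triploid clones, 5.33, 5.89 and 5.02 in tetraploid clones, and 4.91, 4.87 and 4.90 in diploid clones. The SD was 0.37 in triploid clones, 0.44 in tetraploid clones and 0.02 in diploid clones, and all 3 diploid clones lay below the other 6 clones. The triploid minus diploid difference was 0.72 ± 0.28 (SE, n = 3 each), 1.64-fold with a 95% interval of 1.06 to 2.56, and its adjusted p in limma was 0.190. The tetraploid minus diploid difference was 0.52 ± 0.28 (adjusted p = 0.422), and 0.28 without tetraploid clone 2 (adjusted p = 0.638). Triploid and tetraploid clones overlapped, at 0.19 ± 0.28 apart.

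Ccnb2, the second B-type cyclin, read 6.36, 6.44 and 6.21 in triploid clones, 6.15, 6.74 and 6.37 in tetraploid clones, and 5.68, 5.66 and 6.04 in diploid clones. All diploid clones lay below the other 6 clones, the highest of them, clone 3, by little. The differences from diploid clones were 0.55 ± 0.23 in triploid clones (adjusted p = 0.213) and 0.63 ± 0.23 in tetraploid clones (adjusted p = 0.250). Triploid and tetraploid means did not differ beyond their spread, with a difference of -0.08 and a 95% interval of -0.60 to 0.43. Its spread within groups was small, a residual SD of 0.22 at the 11.9th percentile of all features.

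Ccna2, cyclin A2, which acts with Cdk2 in S phase and with Cdk1 in G2, read 4.64, 5.32 and 5.32 in triploid clones, 4.92, 5.80 and 5.07 in tetraploid clones, and 4.74, 4.39 and 4.41 in diploid clones. The tetraploid clones all lay above the diploid clones, while triploid clone 1 lay within the diploid range. The tetraploid minus diploid difference was 0.75 ± 0.30, 1.68-fold with a 95% interval of 1.05 to 2.70 (adjusted p = 0.294), and 0.48 without tetraploid clone 2 (adjusted p = 0.456). The triploid minus diploid difference was 0.58 ± 0.30 (adjusted p = 0.309).

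**Figure D2:**
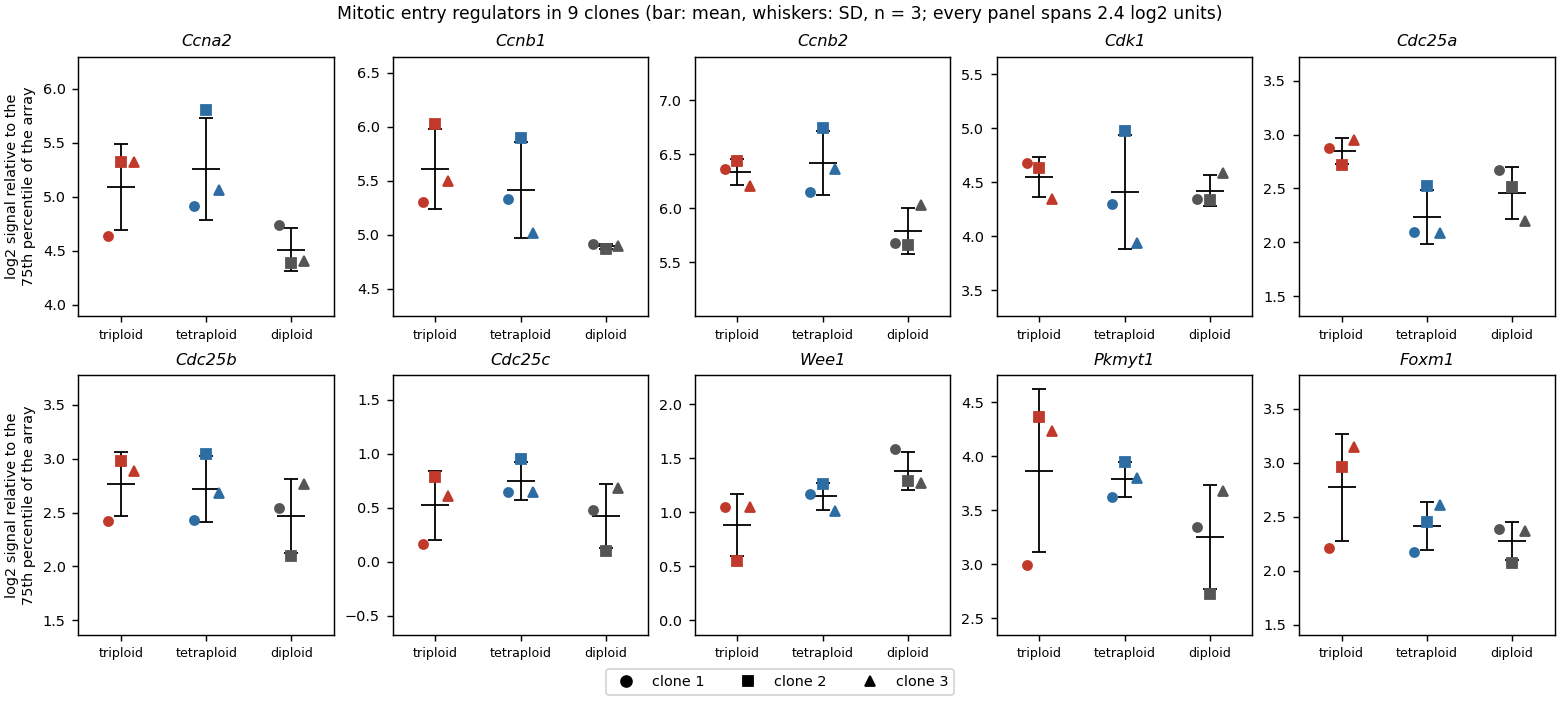
Log2 signal of each of the 10 genes in every clone, with 0 at the 75th percentile of its array, with group mean and SD (n = 3 each); shapes mark clones 1, 2 and 3, and every panel covers the same span. Diploid clones lie below all other clones for Ccnb1 and Ccnb2 and above all others for Wee1, while the 3 groups overlap for Cdk1.

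Cdk1, the kinase that these cyclins activate, showed no such order on its brightest probe. It read 4.68, 4.63 and 4.34 in triploid clones, 4.30, 4.98 and 3.94 in tetraploid clones, and 4.34, 4.33 and 4.58 in diploid clones. The highest and the lowest of the 9 values were both tetraploid, clones 2 and 3, and the groups overlapped throughout. The triploid minus diploid difference was 0.13 with a 95% interval of -0.50 to 0.76, and the tetraploid minus diploid difference was -0.01 with an interval of -0.65 to 0.62. The difference between Cdk1 and its cyclins was not tested.

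Other probes of the same genes were read as a check. The dimmer probes of Ccnb1, A_55_P1952256 and A_55_P2128668, gave triploid minus diploid differences of 0.60 and 0.65 and tetraploid minus diploid differences of 0.22 and 0.26, and correlated with the brightest probe at r = 0.89 and 0.94 over the 9 arrays. On these 2 probes all triploid clones lay above all diploid clones, as on the brightest. Tetraploid and diploid clones overlapped on them, so the separation of tetraploid clones seen for Ccnb1 rests on its brightest probe. The 3 probes of Cdk1 disagreed. A_55_P2016647, well above background on all 9 arrays, gave 0.76 and 0.42 for triploid and tetraploid clones against diploid clones. On this probe all triploid clones lay above all diploid clones, at -2.88, -2.15 and -2.11 against -3.04, -3.15 and -3.22. Tetraploid clones overlapped both groups on it. A_55_P2016652, well above background on 8 arrays, gave -0.79 and -0.99. On A_55_P2016652 diploid clone 1 read -0.58, against -2.99 and -2.46 in the other diploid clones. Both dim Cdk1 probes had diploid means of -3.14 and -2.01, far below the 4.42 of the brightest one. They correlated weakly with it, at r = 0.52 and 0.39. The second Foxm1 probe followed the first at r = 0.93.

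**Figure D3:**
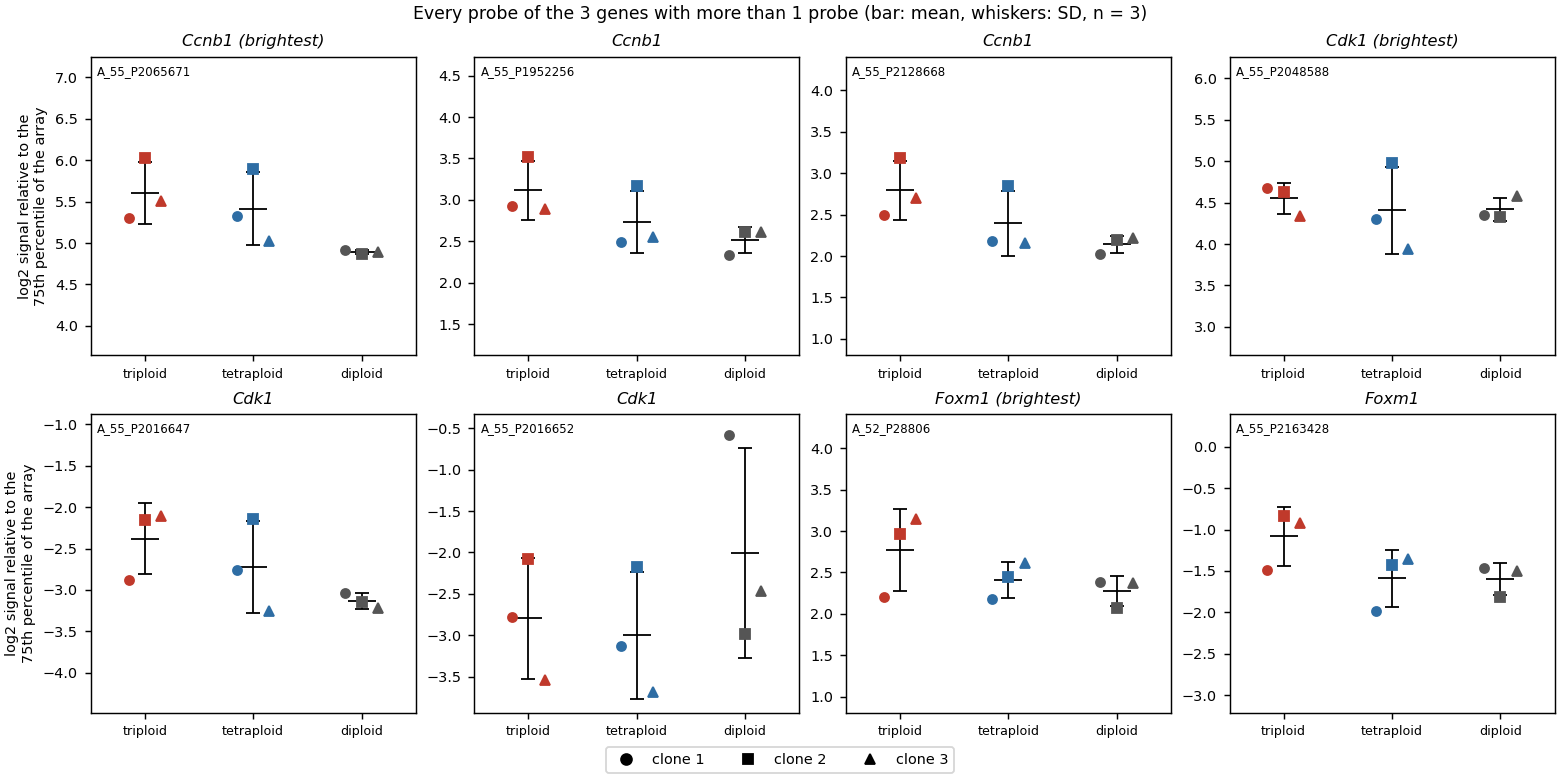
Log2 signal of every probe of Ccnb1, Cdk1 and Foxm1 in each clone, with 0 at the 75th percentile of its array, with group mean and SD (n = 3 each); every panel covers the same span. The 3 Ccnb1 probes put the triploid mean highest, whereas the 3 Cdk1 probes order the groups differently.

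The Cdc25 phosphatases differed among themselves. Cdc25a, which acts at the entry into S phase as well as into mitosis, read 2.87, 2.71 and 2.95 in triploid clones, 2.10, 2.52 and 2.08 in tetraploid clones, and 2.67, 2.51 and 2.20 in diploid clones. The triploid clones lay above all 6 others, and tetraploid and diploid clones overlapped. Triploid exceeded tetraploid clones by 0.61 ± 0.22, 1.53-fold, with an interval of 0.10 to 1.12 on the log2 scale (adjusted p = 0.167), and diploid clones by 0.39 ± 0.22 (adjusted p = 0.359), or 0.26 without diploid clone 3. The tetraploid minus diploid difference was -0.22 ± 0.22 (adjusted p = 0.676). Cdc25a thus had its tetraploid mean lowest, whereas for the cyclins the diploid mean was lowest; the difference between genes was not tested.

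Cdc25b, the phosphatase that starts Cdk1 activation at the centrosome, read 2.42, 2.98 and 2.88 in triploid clones, 2.43, 3.04 and 2.68 in tetraploid clones, and 2.54, 2.10 and 2.77 in diploid clones. Cdc25c, which is switched on by Cdk1 in a positive loop, read 0.17, 0.78 and 0.61 in triploid clones, 0.65, 0.95 and 0.64 in tetraploid clones, and 0.48, 0.10 and 0.68 in diploid clones. For both genes all groups overlapped, and no difference exceeded 0.33 in size.

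Of the inhibitory kinases, Wee1 was the 1 gene of the 10 with its highest mean in diploid clones. Wee1, which phosphorylates nuclear Cdk1, read 1.05, 0.55 and 1.05 in triploid clones, 1.17, 1.26 and 1.01 in tetraploid clones, and 1.58, 1.28 and 1.27 in diploid clones. All diploid clones lay above the other 6, though the highest tetraploid clone, clone 2, came close to diploid clones 2 and 3. The triploid minus diploid difference was -0.50 ± 0.22, with a 95% interval of -1.0 to 0.01 (adjusted p = 0.241), and the tetraploid minus diploid difference was -0.23 ± 0.22 (adjusted p = 0.657). For Wee1, the triploid minus diploid difference was -0.40 on the shared slide alone, without diploid clone 1, and -0.33 without triploid clone 2.

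Pkmyt1, the membrane-bound kinase that also inhibits Cdk1, ran the other way. It read 3.0, 4.37 and 4.24 in triploid clones, 3.62, 3.95 and 3.80 in tetraploid clones, and 3.35, 2.73 and 3.68 in diploid clones. Triploid clone 1 lay in the diploid range and far below the other triploid clones, and the groups overlapped. The triploid minus diploid difference was 0.62 ± 0.39 (adjusted p = 0.403), and it was 1.05 without triploid clone 1 (adjusted p = 0.0774 in limma), 0.36 without triploid clone 2 (adjusted p = 0.754) and 0.35 without diploid clone 2 (adjusted p = 0.722). The tetraploid minus diploid difference was 0.54 ± 0.39 (adjusted p = 0.551), and 0.27 without diploid clone 2. Its residual SD of 0.53 was the largest of the 10 and stood at the 75.4th percentile of all features.

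Foxm1, the transcription factor of the group, read 2.21, 2.96 and 3.14 in triploid clones, 2.17, 2.45 and 2.61 in tetraploid clones, and 2.39, 2.07 and 2.37 in diploid clones. Triploid clones 2 and 3 were the highest of the 9, and triploid clone 1 lay within the diploid range. The triploid minus diploid difference was 0.49 ± 0.28 (adjusted p = 0.349), the tetraploid minus diploid difference 0.13 ± 0.28 (adjusted p = 0.854), and the second probe gave 0.51 and 0.01. Triploid minus diploid, the value was 0.78 without triploid clone 1 (adjusted p = 0.0934) and 0.31 without triploid clone 3 (adjusted p = 0.666).

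The half-width of the 95% interval of a difference, with 3 clones a group, ran over the 10 genes from 0.50 to 0.88 on the log2 scale, that is 1.42- to 1.84-fold. A difference smaller than the half-width of its gene has an interval that covers 0. These intervals are not adjusted, and larger differences also missed the adjusted threshold. Ccnb1 stood at 0.72 for triploid minus diploid, with a half-width of 0.64 and an adjusted p of 0.190 in limma. The median residual SD of the 10 genes was 0.32, against 0.37 over all features.

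The clones differed within each group in a shared way. The mean of the 10 genes, relative to the mean of diploid clones, was 0.08, 0.49 and 0.44 in triploid clones, 0.10, 0.57 and 0.13 in tetraploid clones, and 0.08, -0.18 and 0.10 in diploid clones. Tetraploid clone 2 was the highest of the 9 clones for 5 of the 10 genes, and diploid clone 2 the lowest for 7. How often these clones were the extremes over all features was not counted, so these counts have no background. Triploid clone 1, tetraploid clones 1 and 3 and diploid clones 1 and 3 lay within a narrow span of 0.08 to 0.13. The groups therefore overlapped on this mean.

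Levels of genes that are used in S phase are given beside them. The mean of 10 S phase genes, among them Pcna and the Mcm helicase subunits, relative to diploid clones was 0.42, 0.76 and 0.81 in triploid clones, 0.23, 0.87 and 0.03 in tetraploid clones, and 0.21, -0.08 and -0.13 in diploid clones. Of the 10, 8 had the higher mean in triploid than in diploid clones. Rrm2 and Ccne1 had the lower mean, by -0.36 ± 0.32 and -0.44 ± 0.36. In limma 0 of the S phase genes passed in any comparison. At an unadjusted p under 0.05, 6 were higher in triploid minus diploid (21.2% of all features) and 2 in tetraploid minus diploid (14.8%). In triploid minus tetraploid 1 was higher and 1 lower (20.8%). The medians of the S phase genes were 0.76, 0.40 and 0.41, against 0.44, 0.29 and 0.06 for the regulators. Triploid clones 2 and 3 and tetraploid clone 2 were the highest in both lists, while diploid clone 3 had the highest mean of the diploid clones for the regulators, at 0.10, and the lowest for the S phase genes, at -0.13. Of these 10 genes, 10 were above background on all 9 arrays, and their summed signal ran over 572 to 707 multiples of the 75th percentile in triploid clones, 458 to 771 in tetraploid clones and 394 to 464 in diploid clones. The part of growth state in the differences of the regulators was not tested. In RNA from whole cultures, fewer cells near mitosis and less RNA per such cell cannot be told apart.

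**Figure D4:**
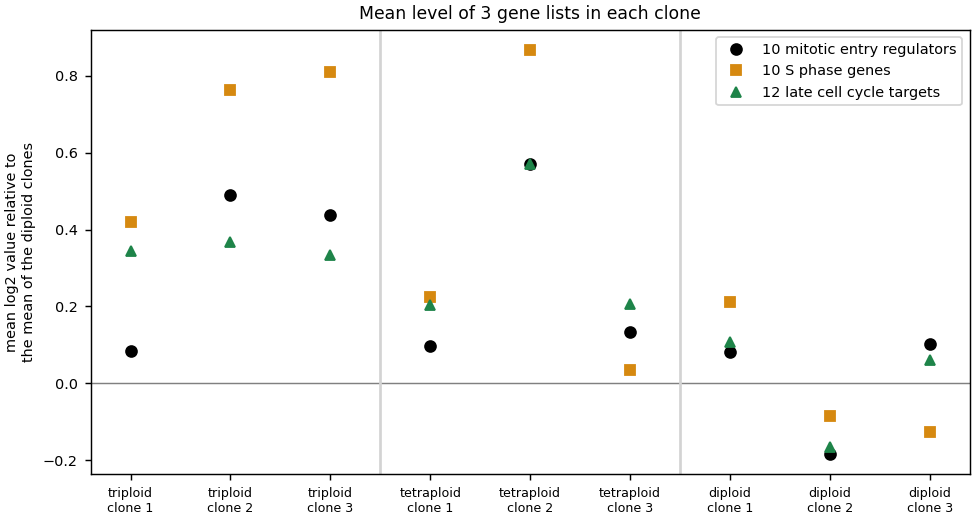
Mean log2 value of the 10 mitotic entry regulators, 10 S phase genes and 12 late cell cycle targets in each clone, relative to the mean of the diploid clones. Tetraploid clone 2 and triploid clones 2 and 3 lie highest for the regulators, at 0.57, 0.49 and 0.44, and diploid clone 2 lowest, at -0.18.

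Over the 9 clones the median Pearson's r of the 45 pairs of these genes was 0.41, and 34 pairs were positive, while the median over all pairs of named genes was 0.03. With group means removed the median was 0.43 and 35 pairs were positive. These are descriptions over 9 arrays that share scaling and, for 8 of them, a slide. Cdc25b and Pkmyt1 were the most alike pair, at r = 0.90, followed by Cdc25b and Cdc25c at 0.87, Cdc25c and Pkmyt1 at 0.86, and Pkmyt1 and Foxm1 at 0.85. Without the 2 arrays on which the first gene lay farthest from its median, these pairs stood at 0.89, 0.68, 0.51 and 0.77. Ccna2 and Ccnb1 stood at 0.84, and Ccnb1 and Ccnb2 at 0.78. Wee1 was negative with each of the other 9 genes, lowest with Ccnb1 at -0.64, but with group means removed 3 of its 9 correlations were positive. Cdk1 and Cdc25a followed the others least among the positive genes, at r = 0.40 and 0.20 with the mean of the other 9, against 0.91 for Cdc25b.

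**Figure D5:**
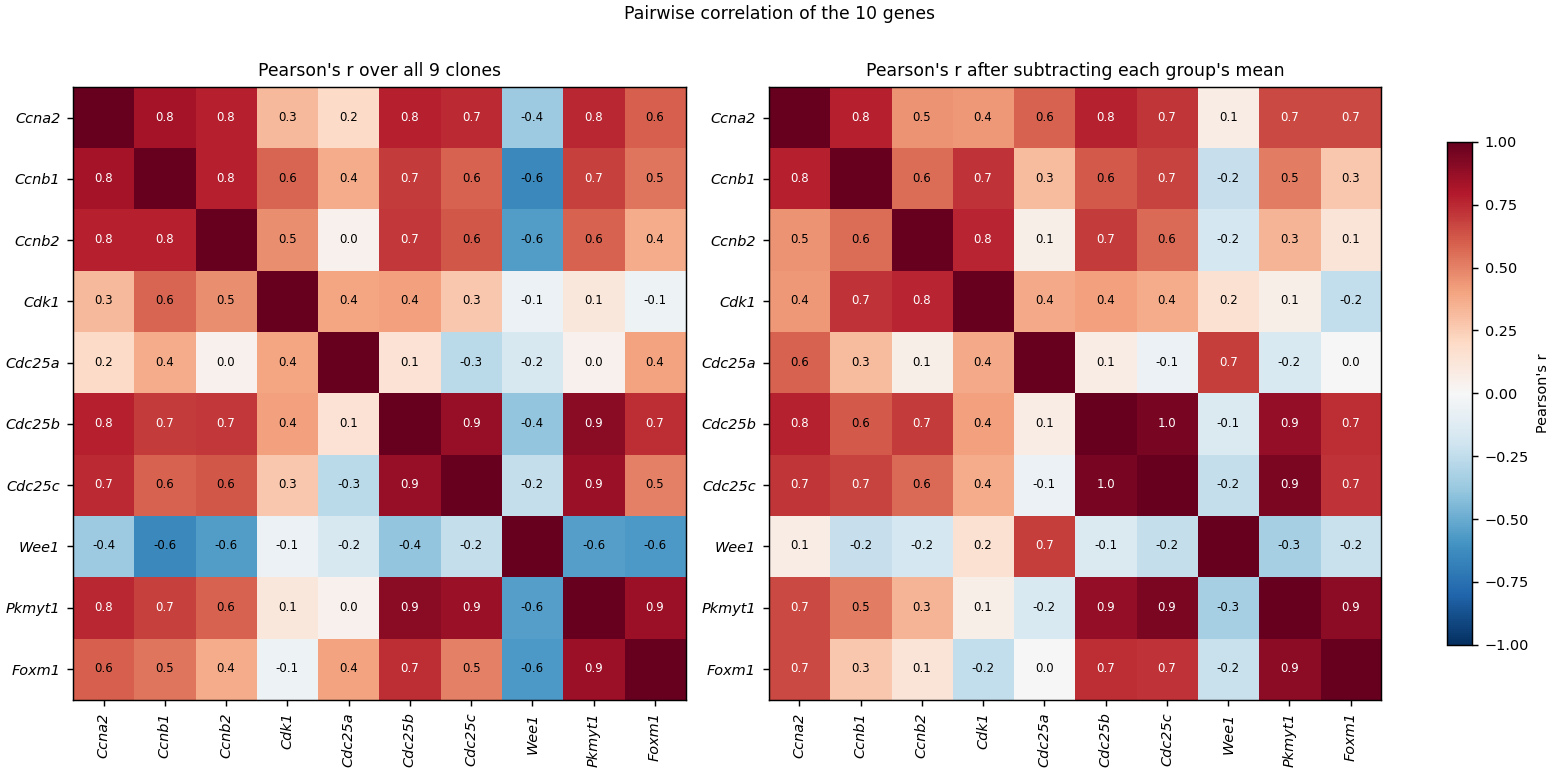
Pearson's r between every pair of the 10 genes over the 9 clones (left) and after subtracting each group's mean (right). Wee1 is negative with every other gene on the left, and Cdc25b, Cdc25c and Pkmyt1 form a block of high values on both sides.

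The named genes whose log2 values followed the mean of the 10 regulators most closely over the 9 arrays were Creld2 at r = 0.98, Gclm at 0.98, Dcun1d2 at 0.97, L3mbtl2 at 0.97 and Nek2 at 0.97. Nek2 is a centrosomal kinase of the cell cycle, and Gclm is the regulatory subunit of glutamate-cysteine ligase. The most opposite genes were Tmem200a at -0.97, BC028528 at -0.95, Herc2 at -0.95, Pde8b at -0.94 and Tnfsf11 at -0.94. These 10 genes are the extremes of all named genes and carry no test.

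Other genes of the pathway were read from lists by role. Of 11 tested partners and activators of Cdk1, 0 passed in limma in any of the 3 comparisons and 1 had an unadjusted p under 0.05, Tpx2, the activator of Aurka, at 0.61 ± 0.26 for triploid minus diploid (adjusted p = 0.213), where 21.2% of features did. For tetraploid minus diploid the smallest p were those of Ccnh, the cyclin of the Cdk-activating kinase, at 0.53 ± 0.37 (adjusted p = 0.533), Tpx2 at 0.31 ± 0.26 (adjusted p = 0.598) and Bora, which helps Aurka activate Plk1, at -0.45 ± 0.39 (adjusted p = 0.624). Medians of this list were 0.13, 0.10 and 0.20 in the 3 comparisons, against 0.10, -0.01 and 0.17 over all features.

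The Greatwall arm restrains the phosphatase PP2A-B55, which opposes Cdk1. The list read here held Mastl, Arpp19 and Ensa of this arm, subunits of the phosphatase it restrains, and Ppp1ca. Genes on opposing sides are therefore counted together. Of these 9 genes, 0 passed in limma in any comparison. In tetraploid minus diploid 3 had an unadjusted p under 0.05, all higher, where 14.8% of features did. The number was 0 in triploid minus diploid, against 21.2%, and 1 in triploid minus tetraploid, against 20.8%: Arpp19, at -0.83 ± 0.24 (adjusted p = 0.0997). In tetraploid minus diploid, Arpp19, one of the small PP2A-B55 inhibitors that Greatwall activates, stood at 0.81 ± 0.24 (adjusted p = 0.178), Ensa, the other one, at 0.62 ± 0.25 (adjusted p = 0.286), and Ppp2r1a, the scaffold subunit of PP2A, at 0.54 ± 0.22 (adjusted p = 0.295). The medians of the list were 0.31, 0.17 and 0.09 in triploid minus diploid, tetraploid minus diploid and triploid minus tetraploid.

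Of 13 tested brakes of the G2 checkpoint, 1 passed in limma, in triploid against tetraploid clones, where 2.70% of all features passed. This was Plk3, a stress-responsive kinase, which read 1.07, 1.5 and 1.36 in triploid clones and 0.03, 0.29 and 0.28 in tetraploid clones, and was higher in triploid clones by 1.11 ± 0.22 (adjusted p = 0.0356). Over the alternatives its adjusted p ran from 0.0203 to 0.128, and it missed the threshold without diploid clone 1, tetraploid clone 1 or 3, or triploid clone 2 or 3, with the slide as a block, in a fit of the 2 groups alone and with no filter on dim probes. Of these, the slide block repeats leaving out diploid clone 1. Diploid clones read 1.21, 1.61 and 1.32, close to triploid clones, and the tetraploid minus diploid difference was -1.18 ± 0.22 (adjusted p = 0.0806). Chek2, a kinase of the DNA damage response, stood at 0.98 ± 0.27 in triploid clones (adjusted p = 0.0937) and at 0.96 ± 0.27 in tetraploid clones (adjusted p = 0.153) against diploid clones. Gadd45a, a growth arrest gene, stood at 0.63 ± 0.21 and 0.82 ± 0.21 in the same comparisons (adjusted p = 0.140 and 0.129). At an unadjusted p under 0.05, 3 of the 13 were higher in triploid minus diploid, where 21.2% of features reached it. In tetraploid minus diploid 2 were higher and 1 lower (14.8% of features), and in triploid minus tetraploid 1 was higher and 1 lower (20.8%). The lower one in triploid minus tetraploid was Cdkn1a, at -2.01 ± 0.59 (adjusted p = 0.101 in limma). Cdkn1a read -3.31, -0.78 and -0.95 in triploid clones and 0.51, 0.58 and -0.10 in tetraploid clones.

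Of 12 genes of the MuvB, B-Myb and Foxm1 machinery, which turns on late cell cycle genes, 0 passed in limma, and 2, 3 and 2 had an unadjusted p under 0.05 in triploid minus diploid, tetraploid minus diploid and triploid minus tetraploid, where 21.2%, 14.8% and 20.8% of features did. Rbl2, the pocket protein of the repressive DREAM complex, stood at -1.42 ± 0.32 for triploid minus tetraploid (adjusted p = 0.0519) and at 1.36 ± 0.32 for tetraploid minus diploid (adjusted p = 0.112). Rbl1, its relative, stood at 0.63 ± 0.22 for triploid minus diploid (adjusted p = 0.151) and 0.92 ± 0.22 for tetraploid minus diploid (adjusted p = 0.113). Mybl2, which encodes B-Myb, stood at 1.07 ± 0.42 for triploid minus diploid (adjusted p = 0.192) and 1.30 ± 0.42 for triploid minus tetraploid (adjusted p = 0.127).

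Of the 12 late cell cycle targets tested, 0 passed in limma, while 4 had an unadjusted p under 0.05 in triploid minus diploid, 2 in tetraploid minus diploid and 0 in triploid minus tetraploid, where 21.2%, 14.8% and 20.8% of features did. Kif20a, a kinesin of cytokinesis, stood at 0.79 ± 0.22 and 0.72 ± 0.22 (adjusted p = 0.0951 and 0.176), and Top2a, the topoisomerase of chromosome condensation, at 0.94 ± 0.28 and 0.57 ± 0.28 (adjusted p = 0.111 and 0.375). In triploid minus diploid 10 of the 12 were higher, while Mki67 and Ccng2 were lower, at -0.18 ± 0.23 and -0.81 ± 0.57. The medians of the list were 0.42 and 0.31, near those of the 10 regulators at 0.44 and 0.29. Of 11 tested genes of cyclin destruction, 0 passed in limma, and 1, 0 and 1 had an unadjusted p under 0.05 in the 3 comparisons, where 21.2%, 14.8% and 20.8% of features did. Anapc1, the largest subunit of the anaphase-promoting complex, stood at 0.91 ± 0.27 for triploid minus diploid (adjusted p = 0.112) and 0.85 ± 0.27 for triploid minus tetraploid (adjusted p = 0.122).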

How the data were processed

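Total RNA of 9 clones was labelled with Cy3 and hybridised to 1 array each. The deposited scanner files hold processed signal intensity per spot, made by the authors with Agilent Feature Extraction 10.7.3.1 on a design drawn up on mm9, per the file headers. The authors also deposited a log2 table, which was the log2 of that signal less one constant for every array and less the value in diploid clone 1, within 0.001 at 100% of probes; it served as an alternative.

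Log2 values of spots with the same probe were averaged, and the 75th percentile of an array was set to 0. Probes called well above background throughout any 1 group were kept, 25473 in all, and 83 were dropped as outliers or non-uniform. Of 55681 probes, 26413 were named through a RefSeq table of GRCm38.p6. The brightest kept probe stood for a gene. Differences, SE and p-values came from limma 3.58.1 in R 4.3.3 with 1 mean per group over all 9 arrays (6 residual and 3.19 prior degrees of freedom), with Benjamini-Hochberg adjustment over 21800 features. The code was tested on simulated data.

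All 10 genes were named in every comparison, and from each pathway list every gene called, or else up to 3 of smallest p. Cdkn1a was named outside this rule, and its values under the alternatives are not given. The members and lists were chosen with earlier results of these data known. The labels' clone numbers were not used to pair the samples in the main fit. The files hold no mean pixel signal, so the normexp alternative ran on median signals. Other alternatives changed scaling, filters, probes, blocks and clones. The number of arrays limits the precision.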

Additional observations from a re-analysis of the deposited data

How the results depend on the processing

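None of the 10 genes passed an adjusted p of 0.05 in limma under any of the 20 alternatives in any of the 3 comparisons; the smallest adjusted p were 0.0774 (Pkmyt1, triploid minus diploid, without triploid clone 1), 0.189 (Ccnb2, tetraploid minus diploid, normexp) and 0.0999 (Cdc25a, triploid minus tetraploid, without tetraploid clone 2). The clone number block, the fit of the 2 groups alone and leaving out a clone of the third group cannot change a difference. Nor can the variance prior with an intensity trend. Both changes of the filter on dim probes left each of these genes its brightest probe and so its difference. The slide block cannot change triploid minus tetraploid, and the mean over probes cannot change a gene with 1 probe. The direction was unchanged at 195, 196 and 188 of 200 values per comparison, part of which therefore could not move. The exceptions were differences that did not pass, and the cause was not tested beyond fewer clones. For triploid minus diploid, Cdk1 was -0.013 under quantile normalization and -0.012 with scaling to probes detected on all arrays, and Cdc25c was -0.042 with that scaling and, leaving out a clone, -0.060 to 0.28. That scaling moved the median of all features to -0.05 and -0.14 against diploid clones in triploid and tetraploid clones and the median of the 10 genes to 0.30 and 0.17. For tetraploid minus diploid, Cdk1 was 0.032 under normexp and -0.30 to 0.22 leaving out a clone. For triploid minus tetraploid, leaving out a clone gave Ccna2 -0.34 to 0.10, Ccnb1 -0.013 to 0.43, Ccnb2 -0.22 to 0.078, Cdk1 -0.088 to 0.43, Cdc25b -0.10 to 0.21 and Pkmyt1 -0.17 to 0.51.

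The number of features called depended on the setting. For triploid minus diploid it was 400, and 219 with the clone number as a replicate block, 81 with the slide as a block, 103 with no filter on dim probes, 226 in a fit of the 2 groups alone, and 64 (without triploid clone 2) to 1646 (without triploid clone 1) leaving out a clone. For tetraploid minus diploid it was 16, and 0 with the replicate block, 0 with the slide block, 0 with no filter, 9 under normexp, 5 under quantile normalization, 97 with the scaling to detected probes, 30 in a fit of the 2 groups alone, and 0 (without triploid clone 2) to 114 (without diploid clone 3) leaving out a clone. For triploid minus tetraploid it was 589, and 284 with the slide block, 198 with no filter, and 136 (without triploid clone 3) to 1611 (without triploid clone 1) leaving out a clone; the replicate block gave 465. Clones that share a number correlated at -0.13 to 0.09 in their deviations from group means. The labels do not say whether such clones share an origin or handling. The counts of genes whose groups do not overlap were recomputed without each clone, an alternative chosen after seeing the data. The 52 differences of pathway genes kept their direction at 1040 of 1040 values. Part of these values could not move either, and the genes were those called or of smallest p. Plk3 (triploid minus tetraploid) no longer passed under 8 alternatives, of which the slide block and leaving out diploid clone 1 give the same difference. Another 4 values passed that had not: Anapc1 (triploid minus diploid, without triploid clone 1), Mybl2 (triploid minus tetraploid, without tetraploid clone 2), Plk3 (tetraploid minus diploid, scaling to detected probes) and Rbl2 (triploid minus tetraploid, probes above background on all arrays).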
